A study of Mus musculus with 8 samples.

Results

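The matrix metalloproteinase (Mmp), Adam, Adamts and Timp genes were followed through the ZFP281 binding sites of mouse mammary tumour spheres and early lesion spheres. They were taken by symbol from the RefSeq protein-coding genes of the mm10 build, which gave 80 of 21887 genes, namely 23 Mmp, 34 Adam, 19 Adamts and 4 Timp genes. No measured value entered that choice. ZFP281 is a zinc finger protein that binds DNA and is known from embryonic stem cells, where it helps to regulate pluripotency genes. It was immunoprecipitated with its chromatin from spheres of FvB mice carrying MMTV-HER2/Neu, a transgene in which the mammary tumour virus promoter drives the HER2/Neu oncogene mainly in mammary epithelium. Primary tumour (PT) spheres came from tumours of animals older than 20 weeks, and early lesion (EL) spheres from mammary glands of animals aged 14 to 18 weeks with no palpable tumour. Cells of both groups carried the transgene and were grown for 7 days as spheres on plates that hinder attachment. Each group had 3 ZFP281 libraries and 1 input, and the inputs were not analysed here. The libraries are labelled biological replicates without a statement of which or how many animals each came from. The tissue label reads breast tumor for PT and mammary lung for EL, and summit lists measure no expression, so neither label could be checked against marker levels.

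MMPs are zinc proteases that cut collagens, laminins and other matrix proteins, either secreted or held at the cell surface. ADAMs sit in the membrane and release the outer parts of receptors and growth factors, ADAMTS enzymes are secreted and cut proteoglycans or trim procollagens, and TIMPs inhibit many of these enzymes. In the mammary gland these genes are known from branching of the ducts, from regression after lactation, and from the stroma of invading tumours.

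The data are lists of summits, each a position of 1 bp with the authors' own score. The 3 PT lists held 2897 to 6033 summits and the 3 EL lists 7055 to 15770. A summit within 1 kb of either end of a gene is called a boundary summit below, and the wider window is the gene body with 20 kb on either side. A gene's level in a library is the score percentile of its highest summit within that library's list, and 0 without a summit. A percentile favours the longer EL lists, since a rank that lies near the bottom of a short list lies high in a long one. For that reason each list was also cut to its 2897 top-scoring summits, the length of the shortest, and these equal lists are set beside the full lists. The lowest scores kept were 1.42, 6.61 and 8.74 in PT replicates 1 to 3, and 12.5, 23.3 and 10.3 in EL replicates 1 to 3. By score the cut therefore favours PT, since it drops EL summits that score above PT summits it keeps. With 3 libraries against 3, the smallest p of an exact permutation test is 0.1, so no single gene could pass 0.05.

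Summits lay directly at the transcription starts of 5 members, and 4 of these promoters are shown because they place the summits on sequence. They are RefSeq promoters of GRCm38.p6, from 250 bases before to 50 bases after an annotated start, and 50 of the 80 members had at least 1 such entry. Capitals mark matches to GGGGAGGG on either strand (CCCTCCCC on the other), a guanine-rich string like those ZFP281 is known to bind.
Adamts1: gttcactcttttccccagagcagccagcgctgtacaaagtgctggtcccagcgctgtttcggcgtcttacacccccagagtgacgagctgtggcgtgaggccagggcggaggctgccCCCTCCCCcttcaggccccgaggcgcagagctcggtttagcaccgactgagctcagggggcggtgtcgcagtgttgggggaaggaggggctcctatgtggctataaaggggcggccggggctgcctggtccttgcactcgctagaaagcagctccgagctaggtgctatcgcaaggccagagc
Adamts2: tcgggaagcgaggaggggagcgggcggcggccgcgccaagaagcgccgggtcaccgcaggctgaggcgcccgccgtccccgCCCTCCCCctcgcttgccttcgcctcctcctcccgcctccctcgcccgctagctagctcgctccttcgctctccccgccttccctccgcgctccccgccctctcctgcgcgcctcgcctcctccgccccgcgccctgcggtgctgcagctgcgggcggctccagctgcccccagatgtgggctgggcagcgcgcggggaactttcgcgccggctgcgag
Adam19: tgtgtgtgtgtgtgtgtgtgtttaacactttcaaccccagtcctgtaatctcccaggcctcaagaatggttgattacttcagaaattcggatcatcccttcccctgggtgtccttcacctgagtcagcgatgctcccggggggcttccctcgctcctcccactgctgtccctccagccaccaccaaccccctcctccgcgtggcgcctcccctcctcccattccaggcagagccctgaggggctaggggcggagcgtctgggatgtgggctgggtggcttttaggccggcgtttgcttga
Timp1: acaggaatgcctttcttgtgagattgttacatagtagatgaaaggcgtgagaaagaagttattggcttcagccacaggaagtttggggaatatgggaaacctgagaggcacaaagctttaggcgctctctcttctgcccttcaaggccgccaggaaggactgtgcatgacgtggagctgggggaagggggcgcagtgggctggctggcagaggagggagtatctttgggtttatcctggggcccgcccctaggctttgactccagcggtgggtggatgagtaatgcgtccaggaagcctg
The Adamts1 window (chr16:85803064-85803363, minus strand) held summits of 1 PT and 3 EL libraries at positions -176 to -99 from the start, around a match that begins at -133. The Adamts2 window (chr11:50601835-50602134, plus strand) held summits of 2 EL libraries between -238 and -70, with a match at -169. The Adam19 window (chr11:46055734-46056033, plus strand) held a summit in each of the 3 EL libraries, from -136 to -106, and no match. The Timp1 window (chrX:20869916-20870215, plus strand) held summits of 2 EL libraries between -106 and -31, and no match. The Mmp11 window, not printed, held summits of 2 EL libraries between -4 and 7 from the start. Among all 32851 promoters of that length 10.8% held a match, against 38.4% of the 2531 promoters with a summit in any library and 8.47% of the 30320 without one. Of the 55 member promoters, 2 of the 5 with a summit and 6 of the 50 without one held a match. Median GC content was 66% in promoters with a summit and 52% in those without, so the string and base composition moved together, and the part of either was not tested.

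Fewer members had a summit at a gene boundary in PT than in EL libraries. Boundary summits were found at 2, 6 and 7 of the 80 members in PT replicates 1, 2 and 3, and at 15, 22 and 15 in EL replicates 1, 2 and 3. The means were 5 ± 2.65 members in PT and 17.3 ± 4.04 in EL (SD, n = 3 each), and the groups did not overlap. All protein-coding genes moved the same way, at 8.14% ± 2.75 per PT library and 15.3% ± 4.82 per EL library, while of the members 6.25% ± 3.31 had one per PT library and 21.7% ± 5.05 per EL library. In bulk chromatin, fewer bound cells and less binding per cell cannot be told apart. In equal lists 2, 5 and 3 members had a boundary summit in PT and 5, 5 and 5 in EL, and the groups overlapped. In the wider window the members with a summit numbered 7, 13 and 20 in PT and 30, 41 and 26 in EL in full lists, and 7, 11 and 9 in PT and 12, 13 and 17 in EL at equal lengths. In full lists these were 16.7% ± 8.13 of the members per PT library and 40.4% ± 9.71 per EL library, against 22.4% ± 6.19 of all genes in PT and 37.9% ± 9.30 in EL. At equal lengths they were 11.25% ± 2.5 of the members in PT and 17.5% ± 3.31 in EL, against 16.8% ± 0.150 of all genes in PT and 17.2% ± 0.324 in EL (SD, n = 3 each).

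**Figure D1:**
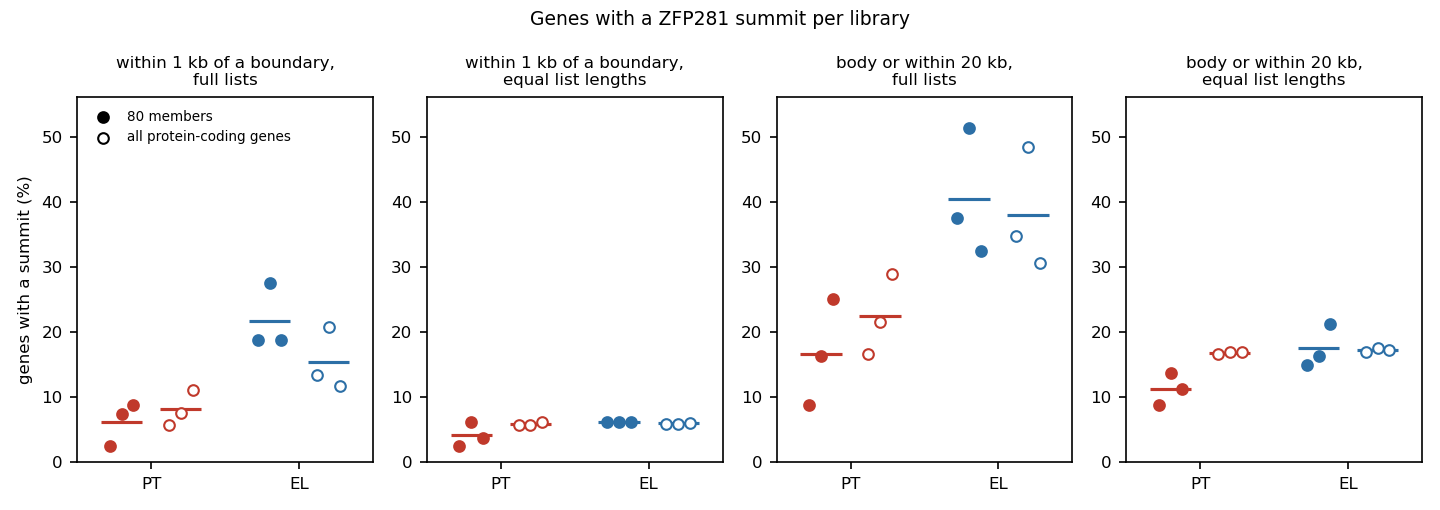
Share of genes with a ZFP281 summit in each library (y axis, percent), for the 80 members (filled) and all protein-coding genes (open), with PT in red, EL in blue and lines at the group means. In full lists both gene sets lie higher in EL, and at equal list lengths all genes lie level between the groups, near 6% at boundaries, while the members of PT libraries lie between 2.5% and 6.25%.

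Members also took a smaller share of each library's summits in PT than in EL. Of all summits, 0.345%, 0.521% and 0.530% lay in the wider window of a member in PT replicates 1, 2 and 3, against 0.850%, 0.780% and 0.850% in EL replicates 1, 2 and 3. In equal lists the shares were 0.345%, 0.518% and 0.414% in PT and 0.656%, 0.587% and 0.863% in EL. Every PT library lay below every EL library in both, with means of 0.466% ± 0.104 in PT and 0.827% ± 0.0406 in EL in full lists (SD, n = 3 each). The summits behind these shares were few, 10 to 32 per PT library and 60 to 123 per EL library. In full lists the 95% Wilson intervals of PT replicate 2 (0.341% to 0.795%) and EL replicate 2 (0.654% to 0.930%) overlapped. That of PT replicate 1 (0.188% to 0.634%) lay below those of EL. At equal lengths the intervals also overlapped between groups, from 0.314% to 0.853% in PT replicate 2 and from 0.367% to 0.938% in EL replicate 2.

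A boundary summit in at least 2 libraries of a group was found at 5 members in PT (6.25%, against 7.46% of all protein-coding genes) and at 17 members in EL (21.3%, against 14.2%). The 5 of PT were Adam15, Adamts6, Adamts7, Adamts12 and Timp2, and all of them were also among the 17 of EL. The other 12 of EL were Adam10, Adamts1, Adamts2, Adamts4, Adamts5, Adamts10, Mmp2, Mmp11, Mmp17, Mmp19, Mmp23 and Timp1. Adamts6 was the member with a boundary summit in all 6 libraries (background 4.39%). Adamts4, Mmp2, Mmp19 and Mmp23 had one in all 3 EL and no PT library, 4 of 80 members or 5%, against 1.94% of all genes, and the opposite class held no member (background 0.0457%). In equal lists Adam15 and Adamts6 had a boundary summit in at least 2 PT libraries (background 5.72%) and Adamts1, Adamts6, Adamts7 and Mmp19 in at least 2 EL libraries (background 5.78%). Adamts6 was again in all 6 (background 2.99%), Mmp19 was in EL alone (background 0.379%), and no member was in PT alone (background 0.338%). In the exact permutation test over 5047 genes, the lowest adjusted p of any gene was 0.417 (Benjamini-Hochberg), and 9 members reached the smallest p of 0.1, all higher in EL. Those 9 were 11.3% of the members, against 5.36% of all genes, while the opposite order was seen in no member and in 0.169% of all genes. In equal lists Adamts1 and Mmp19 had every EL library above every PT library, 2.5% of the members against 1.21% of all genes, and no member had the opposite order (background 0.923%).

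In the wider window the members were close to all genes in EL and fewer than all genes in PT. At least 2 PT libraries had a summit at 12 members (15%, against 21.6% of all genes) and at least 2 EL libraries at 30 (37.5%, against 36.4%). Adamts3, Adamts6, Adamts9, Mmp24 and Timp2 had one in all 6 libraries (6.25%, against 13%). Adam11, Adam12, Adam19, Adamts2, Mmp2, Mmp23 and Mmp28 had one in each EL and in no PT library (8.75%, against 5.19%), and the reverse was true of no member (background 0.206%). In equal lists 22 members had a summit in any library (27.5%, against 27.9%), 8 in at least 2 PT libraries (10%, against 16.2%) and 13 in at least 2 EL libraries (16.25%, against 16.9%). Adamts3, Adamts6, Adamts9 and Timp2 had one in all 6 equal lists (background 8.76%), and Adam19, Adamts2, Adamts7, Mmp14 and Mmp19 in the 3 of EL alone (6.25%, against 1.64%).

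**Figure D2:**
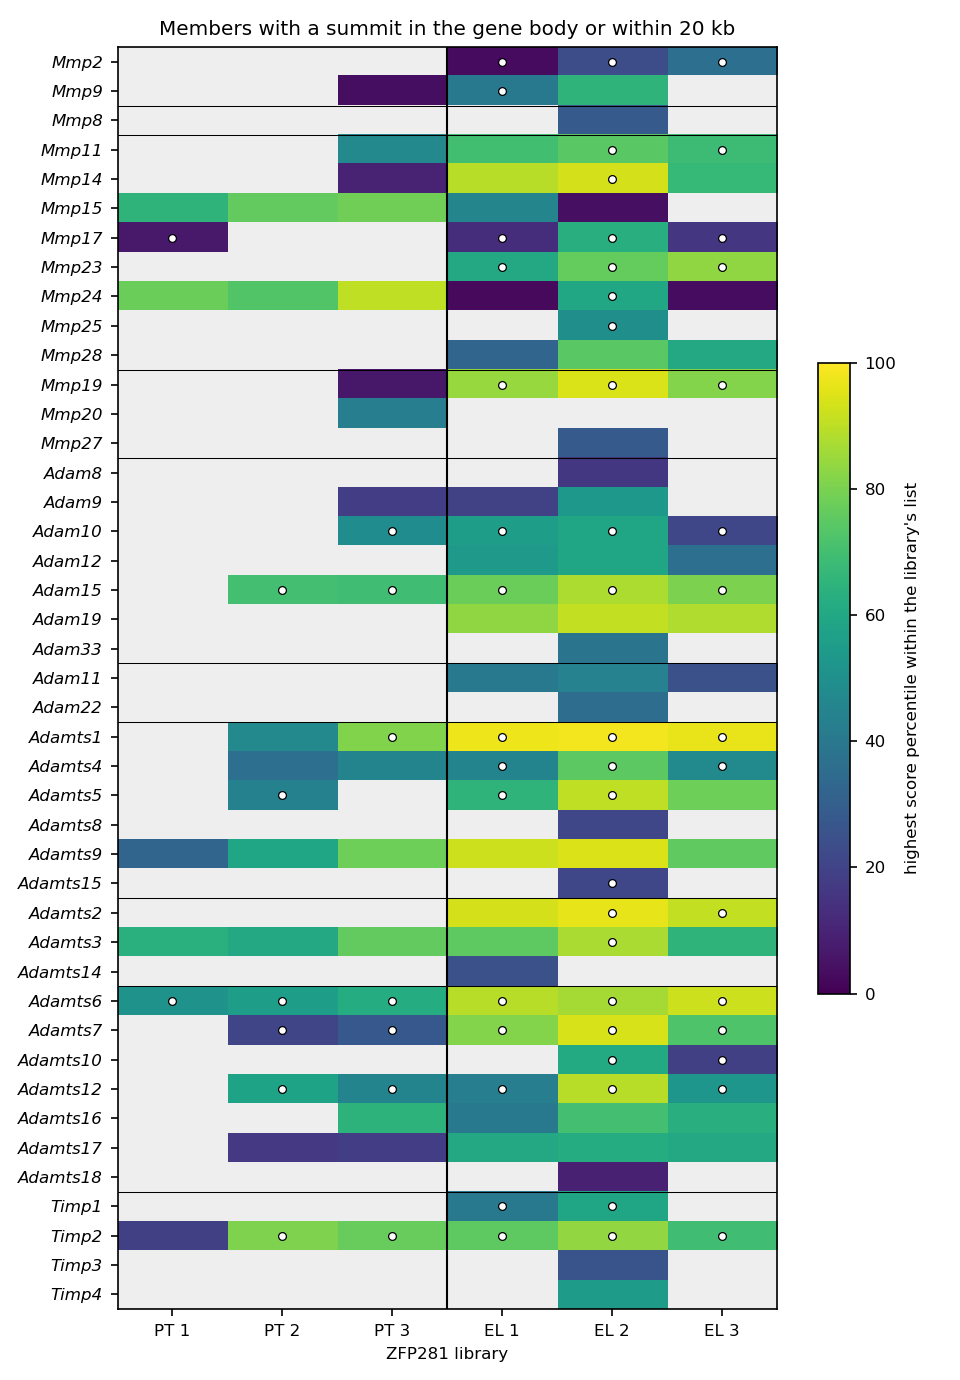
Highest score percentile of a summit in the gene body or within 20 kb (colour, 0 to 100 within each library's own list) for the 43 members with any such summit, in PT and EL libraries, grouped by role. Grey marks no summit and white circles mark a boundary summit. PT replicate 1 has a summit at 7 members, and most EL columns are filled for the ADAMTS genes.

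Among the gelatinases, which cut basement membrane collagen, Mmp2 had low-scoring summits in EL alone. Its boundary percentiles were 0, 0 and 0 in PT replicates 1 to 3 and 2.98, 23.6 and 36.6 in EL replicates 1 to 3, in a region 5 bp from the lower gene boundary (chr8:92827215-92827375). None of these EL summits was among the 2897 top-scoring of its list. Mmp9 had wider-window percentiles of 0, 0 and 3.61 in PT and of 40.4, 65.0 and 0 in EL, so the groups overlapped.

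Of the 10 membrane-type and furin-activated MMPs, 3, 2 and 4 had a summit in the wider window in PT and 7, 8 and 6 in EL, against a mean of 22.4% of all genes per PT library and 37.9% per EL library. In equal lists the counts were 3, 2 and 2 in PT and 2, 1 and 4 in EL, and the groups overlapped. Single genes had higher percentiles in either group. Mmp14, the membrane-type protease that activates pro-MMP2 and cuts fibrillar collagen, had percentiles of 0, 0 and 9.63 in PT and of 89.1, 93.6 and 66.9 in EL (difference -79.98, PT minus EL, exact permutation p = 0.1, adjusted p = 0.305 over 11259 genes). All 4 of its leading summits fell in 1 region 2035 bp inside the gene from its start (chr14:54433559-54433707). The 3 EL summits there were in the equal lists, and the PT summit was not.

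Mmp15 and Mmp24, 2 further transmembrane MMPs, showed the opposite order and were the only members whose wider-window percentile lay higher in every PT library than in every EL library of the full lists. Mmp15 had percentiles of 64.9, 75.9 and 78.4 in PT and of 45.5, 4.12 and 0 in EL. Mmp24 had 77.5, 72.8 and 90.5 in PT and 2.40, 59.8 and 3.39 in EL. The means were 73.1 ± 7.13 in PT and 16.6 ± 25.2 in EL for Mmp15, and 80.3 ± 9.16 in PT and 21.9 ± 32.8 in EL for Mmp24 (SD, n = 3 each). Each gave an exact permutation p of 0.1 and an adjusted p of 0.305. The 2 members are 2.5% of 80, against 0.959% of all genes with that order. In equal lists each of them had summits in the 3 PT libraries and in none of EL, as had 1.42% of all genes.

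The leading Mmp15 summits of PT fell in 2 regions, 3174 bp before its start (chr8:95349052-95349192) and 1215 bp after it (chr8:95353482-95353540), and EL replicate 1 had a summit in both. In the second region the percentiles were 64.9, 75.9 and 46.8 in PT and 38.5 in EL replicate 1. The leading Mmp24 summits of PT shared a region 30186 bp inside the gene from its start (chr2:155805506-155805550), where percentiles were 77.5, 72.8 and 90.5 in PT and 2.40 in EL replicate 1. The Mmp24 percentiles of EL replicates 2 and 3 (59.8 and 3.39) came from another region, 19364 bp before the start and within 1 kb of Procr (chr2:155755936-155756021). PT replicates 2 and 3 had 29.0 and 35.5 there. Neither gene's leading PT regions lay within 1 kb of a boundary, so none of them counted as a boundary summit.

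Other enzymes of this group held EL summits. Mmp23 had boundary percentiles of 0, 0 and 0 in PT and 60.3, 76.3 and 83.3 in EL, in a region 107 bp from its upper boundary that also lies inside Mib2 (chr4:155654618-155654674). Mmp11, known as stromelysin of breast cancer stroma, had wider-window percentiles of 0, 0 and 47.0 in PT and 69.9, 74.3 and 68.6 in EL, and its leading region 3600 bp before the start lies inside Chchd10. Mmp28 had 0, 0 and 0 in PT and 32.6, 74.3 and 60.5 in EL, in a region within Taf15. Mmp17, held by a lipid anchor, had boundary percentiles of 6.65, 0 and 0 in PT and of 13.2, 63.1 and 15.8 in EL. The equal lists left Mmp23 with 0, 0 and 59.4 in EL, Mmp11 with 10.8, 0 and 23.5 in EL, and Mmp28 with 0, 0 and 3.80 in EL, all with no PT summit, while Mmp17 kept its summit of PT replicate 1 and none of EL. A summit at Mmp23, Mmp11 or Mmp28 thus also counts for a neighbouring gene. The authors' scores at Mmp17 were 3.98 in PT replicate 1 and 4.51, 12.3 and 4.74 in EL replicates 1 to 3.

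Mmp19, a secreted protease of basement membrane proteins, had the highest mean boundary percentile of the MMPs in EL. Its percentiles were 0, 0 and 0 in PT and 84.7, 94.2 and 81.6 in EL (difference -86.8, PT minus EL, exact permutation p = 0.1, adjusted p = 0.417). The 3 EL summits spanned 12 bp, 15 bp from the lower gene boundary (chr10:128790890-128790901), with the authors' scores of 22.3, 52.7 and 18.8. Its percentiles in equal lists were 0, 0 and 0 in PT and 54.7, 68.2 and 55.1 in EL.

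The collagenases and stromelysins, the classical secreted enzymes for fibrillar collagen and other matrix, carried almost no summits. Along with Mmp20 and Mmp27 they lie in a cluster of 10 genes on chromosome 9 (7272514 to 7699585, 427 kb). In the wider windows of these genes, PT replicate 3 had a summit at Mmp20 and EL replicate 2 had a summit shared by Mmp8 and Mmp27, and no boundary summit was found in any library. Over the series, 51.4% of protein-coding genes had a summit in the wider window in at least 1 library, against 43 of 80 members.

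**Figure D3:**
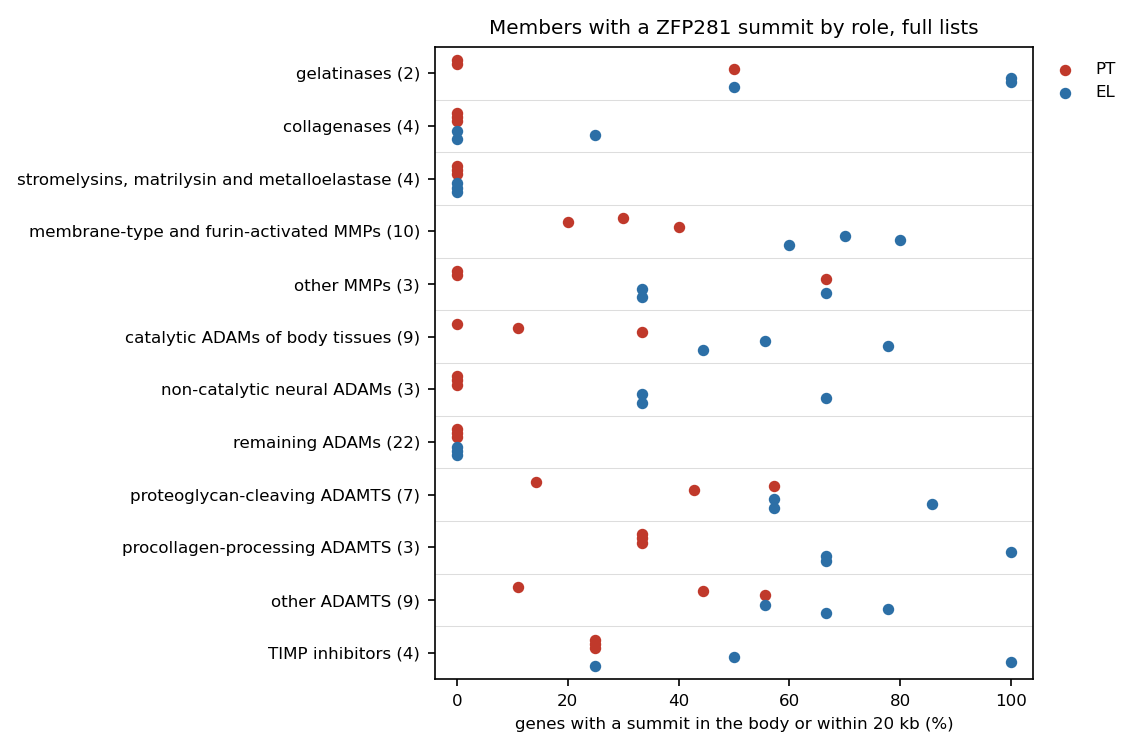
Share of the genes of each role with a summit in the body or within 20 kb (x axis, percent; number of genes in brackets), with 1 point per library, PT in red above EL in blue. The remaining ADAMs and the stromelysin group stay at 0 in all 6 libraries. The membrane-type MMPs, catalytic ADAMs, neural ADAMs and procollagen-processing ADAMTS lie apart between the groups in these full lists.

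ADAM genes differed by type. Of the 22 ADAM genes outside the catalytic and neural groups, most of them known from testis and sperm, none had a summit in the wider window in any library. Of all protein-coding genes 51.4% had one in at least 1 library. These 22 ADAM genes fill 15 separate windows on 5 chromosomes, so they are not 22 independent sites. Of the 9 catalytic ADAMs of body tissues, 0, 1 and 3 had a summit in PT and 5, 7 and 4 in EL in full lists. All genes were also more often covered in EL there, at a mean of 22.4% per PT library and 37.9% per EL library. In equal lists 0, 1 and 1 of the 9 had one in PT and 2, 2 and 2 in EL, against 16.8% of all genes in PT and 17.2% in EL. Adam17, the sheddase of TNF and EGF receptor ligands, had none in any library. Of the neural ADAMs, which lack protease activity, Adam11 had wider-window percentiles of 0, 0 and 0 in PT and 40.4, 44.4 and 24.9 in EL, Adam22 had a summit in EL replicate 2 alone, and Adam23 had none. The Adam11 values of EL replicates 1 and 2 came from a region inside the gene. That of EL replicate 3 came from another region, 7376 bp outside the lower gene boundary. In equal lists Adam11 had no summit in any library.

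Adam19, a sheddase of neuregulin, had the largest difference among the ADAMs. Its percentiles were 0, 0 and 0 in PT and 83.3, 90.8 and 87.9 in EL (difference -87.3, PT minus EL, exact permutation p = 0.1, adjusted p = 0.305), and it had a top-2897 summit in each EL library. The leading region lay 28770 bp after the start of the promoter shown above, inside the gene (chr11:46084737-46084772), with the authors' scores of 20.7, 39.2 and 24.7 in EL. A second lay 33343 bp after that start, and another at the promoter itself, with percentiles of 58.5, 47.6 and 8.59 in EL. That promoter lies 1361 bp from the gene boundary of the table, so it did not count as a boundary summit. Adam12, made by mesenchymal and tumour cells and able to release HB-EGF, had percentiles of 0, 0 and 0 in PT and 53.6, 58.7 and 36.6 in EL. Its 342 kb gene held 8 regions, all from EL libraries, and none within the equal lists.

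Adam10 and Adam15 had summits in both groups. Adam10, the sheddase of Notch and cadherins, had boundary percentiles of 0, 0 and 48.7 in PT and 56.2, 42.0 and 21.5 in EL, in a region 503 bp after its start (chr9:70679470-70679501). The groups overlapped. Adam15 had 0, 70.0 and 69.2 in PT and 61.9, 78.8 and 80.3 in EL at a region that also lies within 1 kb of Dcst1 and Dcst2 (chr3:89349399-89349424). In equal lists the Adam15 boundary percentile averaged 31.4 ± 29.4 in PT and 17.3 ± 30.0 in EL (SD, n = 3 each), so the order of the means turned.

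Of the 5 regions with a summit in all 6 libraries, 4 lay at ADAMTS genes. Adamts6, known in mice from heart and skeleton development, had boundary percentiles of 51.1, 55.97 and 61.8 in PT and 89.3, 86.5 and 92.3 in EL, and the groups did not overlap (exact permutation p = 0.1, adjusted p = 0.417). In equal lists its percentiles were 51.1, 38.7 and 20.3 in PT and 68.1, 26.6 and 81.2 in EL, and the groups overlapped. Its region in all 6 libraries lay 453 bp from the lower gene boundary (chr13:104286917-104287025). A second region 319 bp from that boundary (chr13:104286179-104286219) had percentiles of 20.9 and 61.8 in PT replicates 2 and 3 and no EL summit. The boundary value of PT replicate 3 came from this second region, and its percentile at the region in all 6 libraries was 36.0. EL replicate 3 had a further summit 698 bp from the same boundary, at a percentile of 66.5.

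Adamts1, a proteoglycan-cleaving enzyme, had the highest score of all members in each EL library, and in PT other members such as Mmp24 scored higher. Its boundary percentiles were 0, 0 and 81.0 in PT and 97.6, 98.3 and 96.8 in EL, at the promoter shown above. The authors' scores there were 20.3 in PT replicate 3 and 56.9, 94.7 and 46.8 in EL. The equal lists gave 0, 0 and 60.4 in PT and 92.9, 90.5 and 92.2 in EL (exact permutation p = 0.1, adjusted p = 0.469). A second Adamts1 region, 1188 bp before the start, had percentiles of 47.2 and 55.6 in PT replicates 2 and 3 and of 92.0, 96.0 and 90.7 in EL. Adamts9, a versican-cleaving enzyme, had 2 regions in all 6 libraries, 303 bp and 2100 bp after its start (chr6:92943175-92943288 and chr6:92941368-92941500). Its wider-window percentiles were 32.5, 58.8 and 77.8 in PT and 92.3, 94.7 and 75.7 in EL, and the groups overlapped. Adamts4 and Adamts5, the main aggrecanases, had boundary percentiles of 0, 0 and 0 in PT and 45.2, 72.9 and 47.5 in EL for Adamts4, and of 0, 43.9 and 0 in PT and 27.4, 71.6 and 0 in EL for Adamts5. In the wider window Adamts5 had 0, 43.9 and 0 in PT and 64.9, 90.5 and 77.9 in EL (exact permutation p = 0.1, adjusted p = 0.305). Those EL values came from a region 2501 bp inside the gene from its upper boundary, with no PT summit. In equal lists Adamts5 had 0, 22.0 and 0 in PT and 0, 48.5 and 46.3 in EL, and the groups overlapped.

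The procollagen-trimming Adamts2 had the highest EL percentiles of the members without any PT summit, at 0, 0 and 0 in PT and 93.4, 96.1 and 90.9 in EL (exact permutation p = 0.1, adjusted p = 0.305). Within the gene 3 regions, at 62987, 67672 and 72778 bp from its start, were present in each EL library and absent from the PT lists. The first 2 of these held summits of all 3 equal lists of EL. The related Adamts3 had 1 region in all 6 libraries 1125 bp after its start (chr5:89882156-89882262), with percentiles of 63.3, 60.4 and 76.0 in PT and 75.2, 87.3 and 65.1 in EL. In equal lists Adamts3 had 63.3, 44.9 and 50.1 in PT and 26.6, 31.1 and 14.9 in EL, so that every PT library lay above every EL library (exact permutation p = 0.1, adjusted p = 0.355). The authors' scores in that region overlapped between groups, at 12.6, 11.6 and 16.9 in PT and 15.9, 30.9 and 11.8 in EL. Adamts14 had a single summit, in EL replicate 1.

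Adamts7 and Adamts12, which cut cartilage oligomeric matrix protein, had boundary summits in both groups. Adamts7 had boundary percentiles of 0, 20.9 and 27.5 in PT and 81.4, 94.0 and 43.8 in EL, with none of its PT summits in the equal lists. Adamts12 had 0, 57.9 and 45.1 in PT and 42.7, 89.3 and 52.7 in EL, and the groups overlapped. Adamts10, known with Adamts6 from the microfibrils of connective tissue, had boundary percentiles of 0, 0 and 0 in PT and 0, 61.2 and 18.8 in EL. Adamts13, which cuts von Willebrand factor, had none in any library.

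Of the 4 inhibitor genes, Timp2 held the most summits. Timp2, which inhibits MMPs and also takes part in the activation of pro-MMP2, had 9 regions in its wider window. A region 5675 bp before its start was found in all 6 libraries (chr11:118361009-118361163), with percentiles of 19.1, 80.5 and 76.8 in PT and 52.3, 75.6 and 46.5 in EL. All 3 PT summits of this region and no EL summit were among the 2897 top-scoring of their lists. The authors' scores there were 5.72, 18.7 and 16.9 in PT and 9.37, 18.5 and 8.10 in EL. Timp2 had 5 other regions seen in the 3 EL libraries and in none of PT, with percentiles from 1.502 to 83.6 in EL. Its boundary percentiles were 0, 38.0 and 20.1 in PT and 67.4, 77.2 and 38.8 in EL. Timp1 had 0, 0 and 0 in PT and 40.4, 58.7 and 0 in EL, so 1 EL library was level with PT. In equal lists Timp1 had no boundary summit in any library, and neither had Adam10, Adamts4 or Adamts10. Timp3 and Timp4 had a summit in EL replicate 2 alone, at percentiles of 26.03 and 54.9. Timp1, Timp3 and Timp4 lie inside the synapsin genes Syn1, Syn3 and Syn2.

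**Figure D4:**
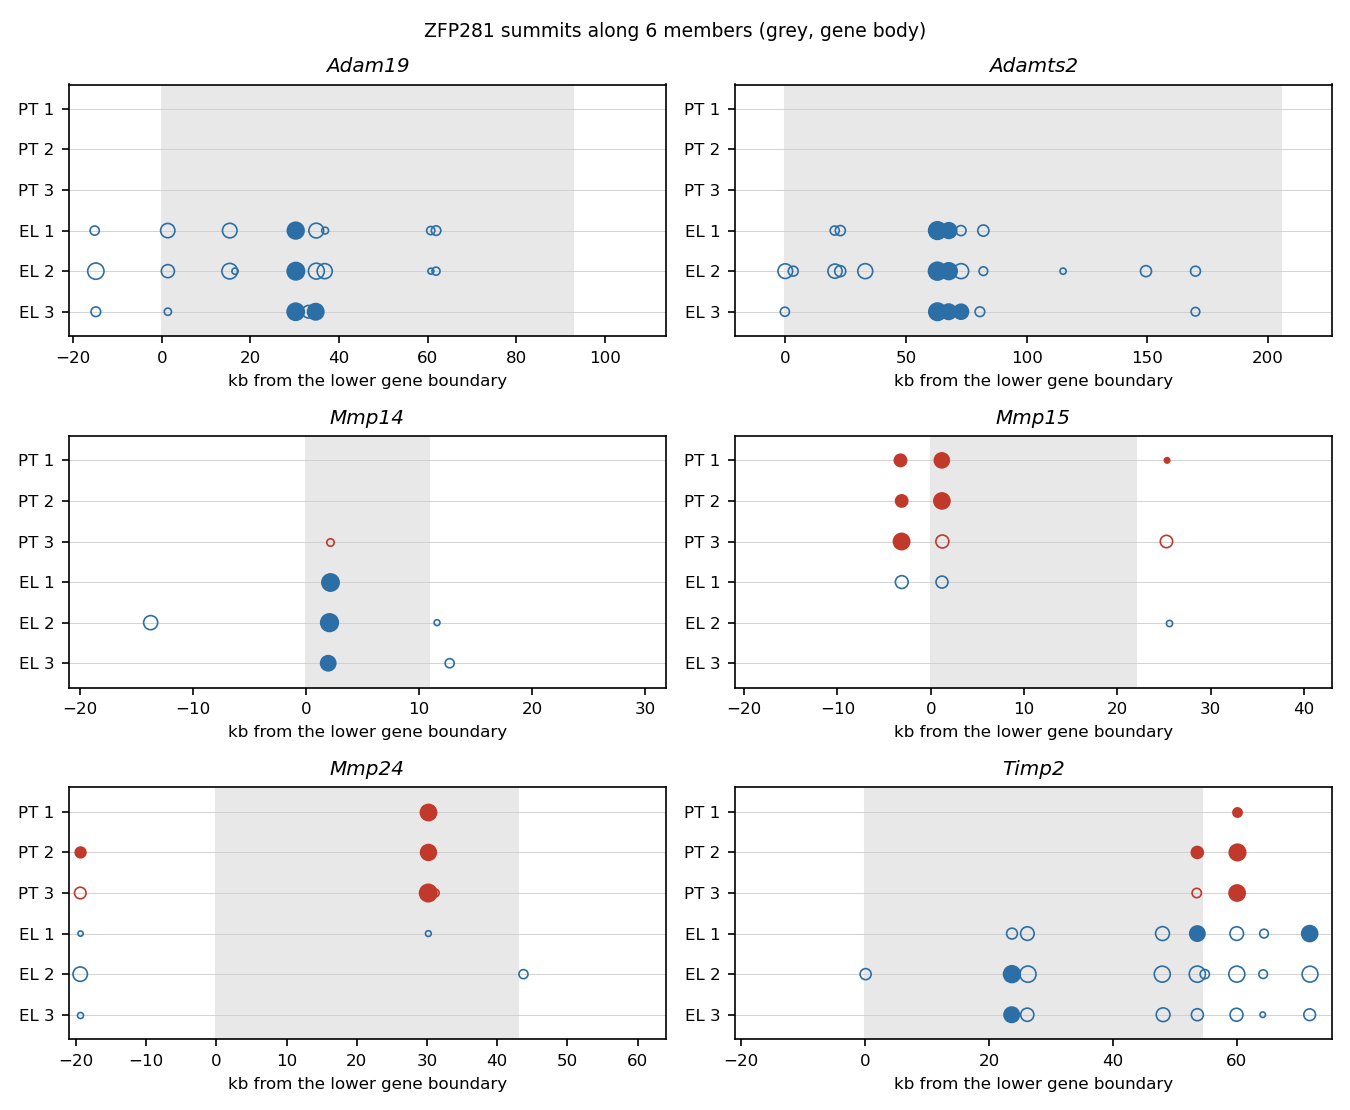
Positions of ZFP281 summits along Adam19, Adamts2, Mmp14, Mmp15, Mmp24 and Timp2 (x axis, kb from the lower gene boundary; grey, gene body), with 1 row per library, PT above EL. Point size grows with score percentile, and filled points are among the 2897 top-scoring summits of their list. Adam19 and Adamts2 have no PT summit, the leading Mmp15 and Mmp24 summits are those of PT, and the Timp2 summits near 60 kb are filled in PT and open in EL.

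Regions were made by joining summits of the 6 lists that lay no more than 200 bp apart, and 144 of them fell in the wider windows of members. Of these 5 were found in all 6 libraries (3.47%, against 8.14% of all 19317 regions of the series), 22 in each EL and no PT library (15.3%, against 10.03%) and 0 in each PT and no EL library (0.704% of all regions). Equal lists left 42 regions, with 3 in all 6 libraries (7.14%, against 16.3% of all), 6 in EL alone (14.3%, against 7.23% of all) and 3 in PT alone (7.14%, against 6.23%). Of the 22 EL-only regions 16 lay inside a member and 4 had their middle within 1 kb of a member's boundary. EL replicate 2 alone held 44 of the 144 regions, or 30.6%, against 33.3% of all regions.

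The choice of window mattered for several members. The closest boundary summits to the limit of 1 kb lay 997 bp from Adamts7 and, just outside, 1019 bp from Adamts4. Measured from annotated starts in place of boundaries, for the 50 members with a promoter entry, at least 2 PT libraries had a summit within 1 kb at 4 members (8%, against 8.07% of 17492 genes) and at least 2 EL libraries at 10 (20%, against 15.1%). Adam19 then had one in each EL and no PT library (background 1.9%), no member had the reverse (background 0.0343%), and Adamts9 was present in all 6 libraries (background 5%). In the wider window, 18 members had every EL library above every PT library in full lists (22.5%, against 15.9% of all genes), and 6 at equal list lengths (7.5%, against 4.61%). The opposite order was seen in 2 members in full lists and in 3 at equal lengths (3.75%, against 3.25%).

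Other genes of matrix proteolysis were examined as a list of 56 genes with a place in the table. In full lists 4 of them had a boundary summit in at least 2 PT libraries (background 7.46%) and 12 in at least 2 EL libraries (background 14.2%). Adamtsl4, Ctsb and Pcsk7 had one in all 6 libraries (background 4.39%). Anxa2, Pcolce, Plat and S100a10 were among the 5 of 56 genes with one in the 3 of EL and none of PT (background 1.94%). In equal lists Pcolce stayed in that class (background 0.379%). Plat, the tissue-type activator of plasminogen, had percentiles of 0, 0 and 0 in PT and 62.8, 77.7 and 74.4 in EL. S100a10 and Anxa2, which together hold plasminogen at the cell surface, had 0, 0 and 0 in PT each, and 64.4, 85.8 and 52.3 in EL for S100a10 and 16.3, 70.0 and 18.8 in EL for Anxa2. Pcolce, an enhancer of procollagen processing, had 0, 0 and 0 in PT and 80.6, 90.5 and 87.4 in EL. Equal lists left EL percentiles of 0, 0 and 37.6 for Plat and of 0, 22.9 and 0 for S100a10. They left 42.4, 48.5 and 69.3 in EL for Pcolce and no boundary summit at Anxa2.

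Boundary summits were also counted at markers of cell types, and the marker sets did not move alike. Of 10 fibroblast markers, 0, 0 and 1 had a boundary summit in PT and 5, 6 and 4 in EL, and at equal list lengths 0, 0 and 0 in PT and 1, 4 and 4 in EL. Of 10 epithelial markers, 4, 4 and 5 had one in PT and 4, 3 and 3 in EL, and at equal lengths 4, 3 and 4 in PT and 1, 0 and 0 in EL. Of 5 adipocyte markers 0, 1 and 0 had one in PT and 1, 1 and 1 in EL, and at equal lengths 0, 0 and 0 in PT and 0, 0 and 1 in EL. None of the 5 endothelial and 6 leukocyte markers had a boundary summit in any library. Many members, with and without summits, are known to be made by fibroblasts, and the part of cell makeup in the differences was not tested.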

How the data were processed

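ZFP281 ChIP-seq libraries of 3 PT and 3 EL sphere cultures were used. The submitters' processing notes name mm10 as build and Picard and Bowtie2 2.3.4.3 among the tools. Which program called the peaks, and how inputs entered, is not given in the sources used here. Deposited by the authors was 1 summit list per library, not pooled, with a score read as −log10 of a p or q value, because every list starts just above 1.30, the −log10 of 0.05. That reading rests on the values. Read depth is unknown, and the protocol text names an RNA kit that does not belong to this assay. Summits of the assembled autosomes and sex chromosomes were set against RefSeq genes of GRCm38.p6 with Python 3.11.15 and pandas 2.3.3. Positions are 1-based. Percentiles were compared by the two-sided exact permutation test over 20 relabellings, for every gene with a summit, with Benjamini-Hochberg adjustment over all of them. Alternatives were equal list lengths, score minimums of 5 and 10, other distances and merging limits, each library left out, a replicate block and, added after seeing the data, distances to annotated starts. No pair of lists had more than 81 summits at identical positions. Intervals cover counting error only. Replicate numbers do not pair the libraries by label. The steps were tested on simulated data, and 100 of 100 planted PT-only and 100 of 100 EL-only genes were recovered in each window, as planting within the window sets in advance. Named were all Timp genes, members with a boundary summit in at least 2 libraries of a group, members with a wider-window summit in all libraries of 1 group and none of the other (full or equal lists), and the 10 with the highest lowest percentile over the 6 libraries, of which 5 were above 0; the remaining names were chosen after their values were seen. A few genes are not reported here. The members, lists and roles were chosen with earlier results of these data known. P-values measure only the spread between libraries, whose animals are not stated.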

Additional observations from a re-analysis of the deposited data

How the results depend on the processing

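Values are for PT minus EL unless a group is named. At equal list lengths the difference in members with a boundary summit was -1.67 per library (-12.3 in full lists), in the wider window -5 (-19), and in the share of summits at members -0.276 percentage points (-0.361). A score of at least 10 gave -6.33 members, starts in place of boundaries -6 (over 50 members), and the gene body alone -0.270 percentage points. Members bound in at least 2 libraries (5 in PT, 17 in EL) numbered 2 in PT and 4 in EL at equal lengths, 2 in PT and 7 in EL at a score of at least 10, and in PT 2 at 500 bp and 10 at 5 kb. The EL-only class (4) held 1 member at equal lengths and 2 at a score of at least 10. Members with every EL library above every PT library at boundaries (9) numbered 2 at equal lengths, 4 at a score of at least 10 and 15 at 5 kb, where 1 member showed the opposite order. In the wider window (18) they numbered 6 at equal lengths and 11 for the gene body alone. Regions numbered 42 at equal lengths, with 3 in all 6 libraries, 3 PT-only and 6 EL-only, and merging at 50 bp gave 2 and 11 for all 6 and EL-only. Left out 1 at a time, libraries gave 1 to 5 members in at least 2 PT libraries (1 without PT replicate 2 and 1 without PT replicate 3), 12 to 17 in at least 2 EL libraries, and 4 to 7 EL-only members (7 without EL replicate 1); the difference ranged from -13.5 to -10 members at boundaries, from -22.3 to -14.7 in the wider window and from -0.394 to -0.301 percentage points. Of 451 values of named members under alternatives, 415 kept their direction and 27 were exactly 0, 13 of these at equal lengths, since no summit was left. The 9 that turned, each above 0, were Adam15 (16.3 at 500 bp, 14.0 at equal lengths), Adamts3 (28.6 at equal lengths), Adamts5 (7.32 at equal lengths, and 0.930 without EL replicate 2 in a range of -34.9 to 0.930 over libraries left out), Mmp17 (2.21 at equal lengths) and Timp2 (boundary 3.41 and wider window 27.0 at equal lengths, and 2.57 without PT replicate 1 in a range of -28.1 to 2.57 over libraries left out). The cause was not tested.

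Same-numbered libraries did not deviate together, with correlations of -0.0587 to -0.0003 over genes. With the replicate block, the exact sign-flip permutation test had a smallest p of 0.25, which 11 members reached at boundaries and 21 in the wider window, against 9 and 20 at the smallest p without the block, so no call could change. Read depth is unknown, and a member without a summit was not detected in that list, which does not show absence of binding.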
